A study of Mus musculus with 13 samples.

Results

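Epididymal fat libraries of TRAMP mice were grouped by the Sqstm1 level measured in each of them, and the 3 libraries low in Sqstm1 were compared with the 3 that were high. Members were chosen from that value alone: a library under 10 FPKM was taken as low and one over 50 FPKM as high, which placed all 6 fat libraries out of the 13 libraries of the series. FPKM is a read count scaled by transcript length and by the size of the library. The groups are defined by a measured value, so they are not genotypes, and the Sqstm1 levels below describe the choice and support nothing. Sqstm1 itself was left out of every test.

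Every mouse was of the C57BL/6 strain, was 30 to 35 weeks of age, ate a regular diet and carried TRAMP, a transgene in which the probasin promoter drives the SV40 T antigens in prostate epithelium, so that prostate tumours form. By label, 3 fat libraries were TRAMP+;p62f/f (called wild type, with a floxed p62 gene) and 3 were TRAMP+;p62aP2KO (p62 knocked out in adipocytes). The aP2 promoter is that of Fabp4, a fatty acid carrier of adipocytes, and it is known to be active in some macrophages as well. Nothing in the labels ties each library to its own mouse, and p-values therefore speak of library-to-library spread, part of which may be technical. Prostate tumour libraries (4 labelled wild type, 3 labelled knockout) were used only to look at the same labels and numbers in a second tissue.

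Sqstm1 encodes p62, a receptor that carries ubiquitinated cargo to the autophagosome by binding LC3 proteins and that is itself degraded there. It is also a scaffold for signalling: it binds KEAP1 and so releases the transcription factor NRF2, binds TRAF6 and atypical protein kinase C on the way to NF-kappa B, and binds raptor in the nutrient-sensing kinase complex mTORC1. In fat, loss of p62 in mice is known to cause obesity and poor thermogenesis.

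Sqstm1 (chromosome 11, 50199366 to 50210827, mm10, minus strand, protein coding) stood at 1.77 FPKM in the fat library labelled wild type 2, 4.53 in knockout 1 and 2.58 in knockout 3. It stood at 73.6 FPKM in wild type 1, 84.3 in wild type 3 and 54.5 in knockout 2. Each Sqstm1 group therefore held libraries of both labels, and the libraries numbered 2 went against their label. Just inside the 2 limits lay knockout 1 at 4.53 and knockout 2 at 54.5 FPKM, 12.04 times apart, and no library lay between them. The low group had a mean of 2.96 ± 1.42 FPKM (SD, n = 3) and the high group 70.8 ± 15.1 (SD, n = 3). Tumour libraries of the same label and number showed the same split into low and high, though not the same order within each side. Sqstm1 was at 5.72, 8.84 and 20.4 CPM, counts scaled to library size, in wild type 2, knockout 1 and knockout 3. It was at 182, 132 and 186 CPM in wild type 1, wild type 3 and knockout 2. The labels do not say that equal numbers in fat and tumour mean one mouse. Gene-level values cannot show whether the floxed exons were read.

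**Figure D1:**
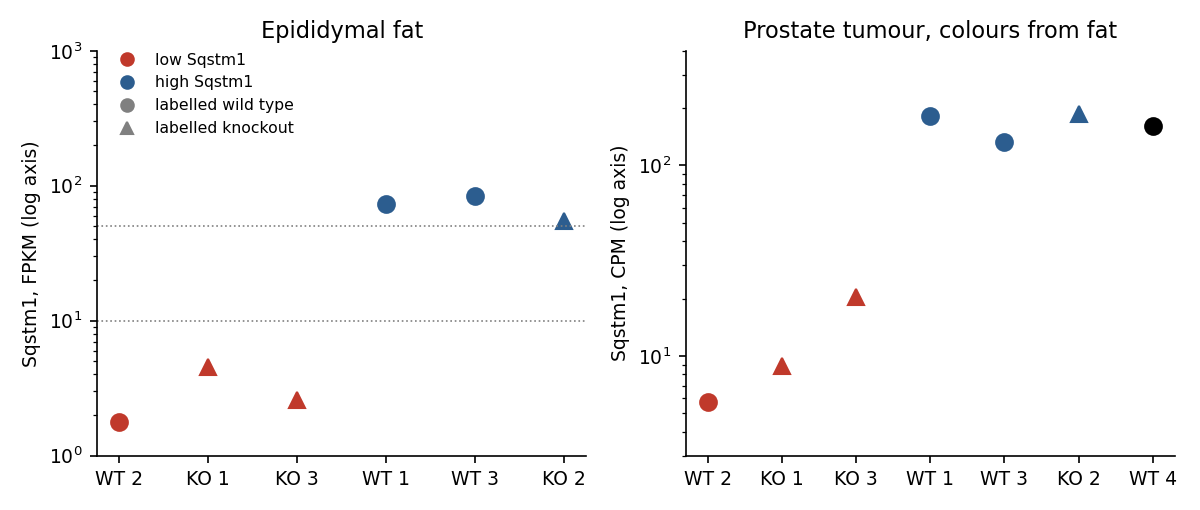
Sqstm1 in each library, on log axes: FPKM in fat (left, dotted lines at the limits of 10 and 50) and CPM in tumours (right, coloured by the group of the fat library of that label and number, wild type 4 in black). WT is labelled wild type and KO labelled knockout. Fat wild type 2 sits with knockouts 1 and 3, and fat knockout 2 at 54.5 FPKM sits with wild types 1 and 3.

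The fat tissue was checked against its markers. Adipoq, the adipocyte hormone adiponectin, stood between 1632 and 2982 FPKM and Fabp4 between 4755 and 8288 in all 6 libraries. Of neighbouring organs, the prostate secretory gene Pbsn and the seminal vesicle genes Svs2, Svs4 and Svs6 were listed at 0 in every fat library. Others on the same lists were not: the seminal vesicle gene Svs5 averaged 0.86 FPKM and the prostate gene Msmb 0.11. Lcn5, an epididymal lipocalin, was at 9.80 FPKM in wild type 2, a low-Sqstm1 library, and at 0 in the other 5. The 15 epididymis and seminal vesicle markers summed to 16.7 FPKM in wild type 2 and to between 0.557 and 3.87 in the others; the part of this in the results was not tested. Library totals ran from 1.11e+06 to 2.11e+06 FPKM, and the median over the genes above 0 in all libraries from 8.35 to 8.48. Read depth is not known for the fat table. Fewer cells of a type and less RNA per cell cannot be told apart in bulk tissue.

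No gene differed between low- and high-Sqstm1 fat libraries at an adjusted p under 0.05: 0 of 13616 genes passed (0%), with a smallest adjusted p of 0.253 (limma on log2(FPKM + 1), Benjamini-Hochberg). An unadjusted p under 0.05 was reached by 456 genes (3.35%), of which 240 were higher and 216 lower in the low-Sqstm1 libraries; 5% of the tests would be 681. Single libraries decided that count: leaving out wild type 1, 2 or 3 gave 270, 918 or 199 genes, leaving out knockout 2 gave 1139, and up to 4 genes passed the adjusted threshold when 1 library was left out. The values of the 2 groups did not overlap for 1063 genes (7.81%), 509 higher and 554 lower. The difference was above 0 for 6893 genes (50.6%). The median standard error of a difference was 0.35 on the log2(FPKM + 1) scale, so differences of that size were not detectable.

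Split by label, the same 6 libraries gave 1 gene at an adjusted p under 0.05 (0.00734%): Snord61, a small nucleolar RNA of 71 bases, listed at 0 in all 3 libraries labelled knockout and at 1698, 1063 and 1235 FPKM in wild types 1, 2 and 3 (limma adjusted p = 4.85e-06). It followed the label and not Sqstm1, since wild type 2 had a value and knockout 2 was listed at 0. The entry is shorter than the reads of 75 bases, which came from polyadenylated RNA. Its value therefore cannot be taken as a measure of the small nucleolar RNA itself. By label 2045 genes had an unadjusted p under 0.05 (15%; 1306 if wild type 1 was left out, 1267 if wild type 3 was and 1329 if knockout 1 was), and 2886 genes had groups that did not overlap (21.2%). With the label as a second term in the fit, the low minus high comparison had 0 genes at an adjusted p under 0.05 and 408 at an unadjusted p under 0.05.

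**Figure D2:**
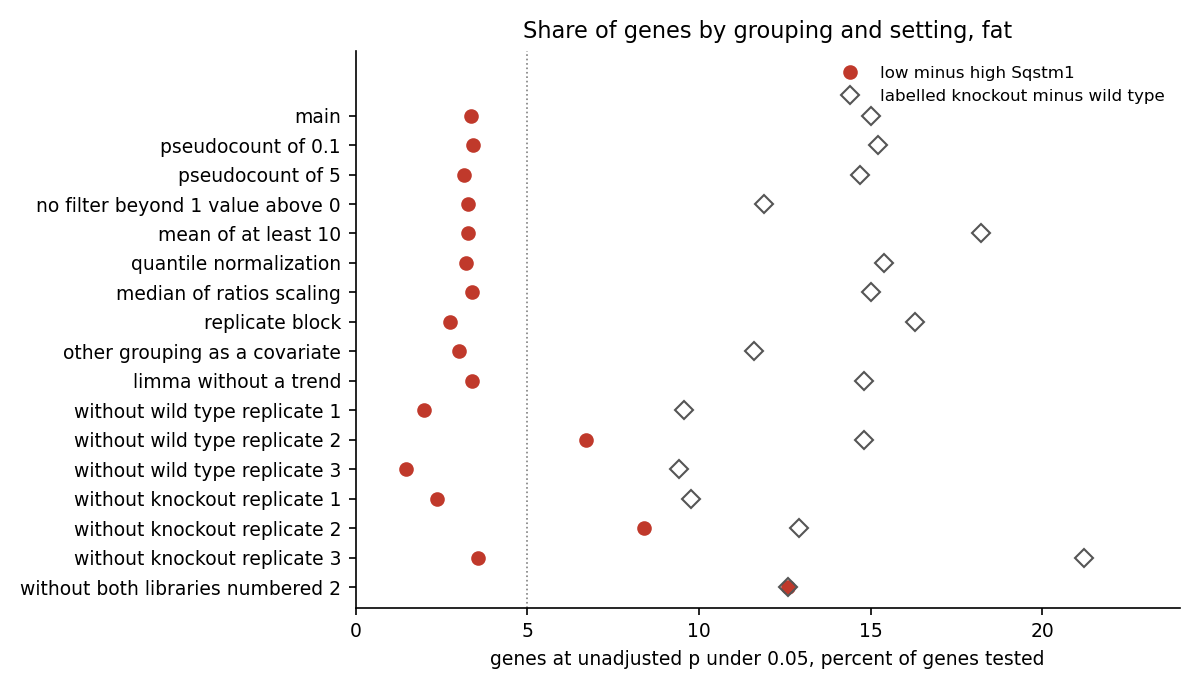
Percent of genes tested that had an unadjusted limma p under 0.05, for low minus high Sqstm1 (filled circles) and labelled knockout minus wild type (open diamonds), in the fit as reported (top row, main) and under each alternative, with a dotted line at 5%. "Other grouping as a covariate" is the label for the circles and the Sqstm1 group for the diamonds. The circles lie left of the diamonds in every row but the last, where both libraries numbered 2 are left out and the 2 groupings are the same libraries, at 12.6%.

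Over all tested genes the fat libraries resembled those of their own label at least as much as those of their own Sqstm1 group. The mean Pearson correlation of log2(FPKM + 1) was 0.863 for the 6 pairs within a Sqstm1 group and 0.866 for the 9 pairs between groups, against 0.885 for the 6 pairs within a label and 0.852 for the 9 pairs between labels. Wild type 2 was closest to wild type 1 (0.901) and knockout 2 to knockout 1 (0.906), so both libraries whose Sqstm1 went against the label had a library of that label as nearest. Knockout 3 was closest to wild type 1 (0.894). These correlations are across genes, which are not independent replicates.

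Low and high libraries can also be set against each other within a label, with no library in common: wild type 2 against wild types 1 and 3, and knockouts 1 and 3 against knockout 2. The 2 differences had the same sign for 6032 of 13616 genes (44.3%). Across genes they had a Pearson r of -0.15 and a Spearman rho of -0.17, given as a description. The library numbered 2 enters them with opposite sign in the 2 labels, so anything shared by the libraries numbered 2 would lower this agreement. Deviations of the 2 libraries numbered 2 from their label means had a correlation of 0.15 across genes. That is the Pearson r above with its sign turned, and not a further observation. What lay behind it was not tested. Differences over 1 on the log2 scale were shared upward by 62 genes and downward by 65, and 310 genes went over 1 in opposite directions. An interaction of Sqstm1 group and label, with 2 residual degrees of freedom, was called for 4 of 13616 genes (0.0294%; limma, adjusted p under 0.05), all of them small RNAs. Low Sqstm1 with a wild-type label and high Sqstm1 with a knockout label are 1 library each, so such a call can rest on a value in 1 library.

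**Figure D3:**
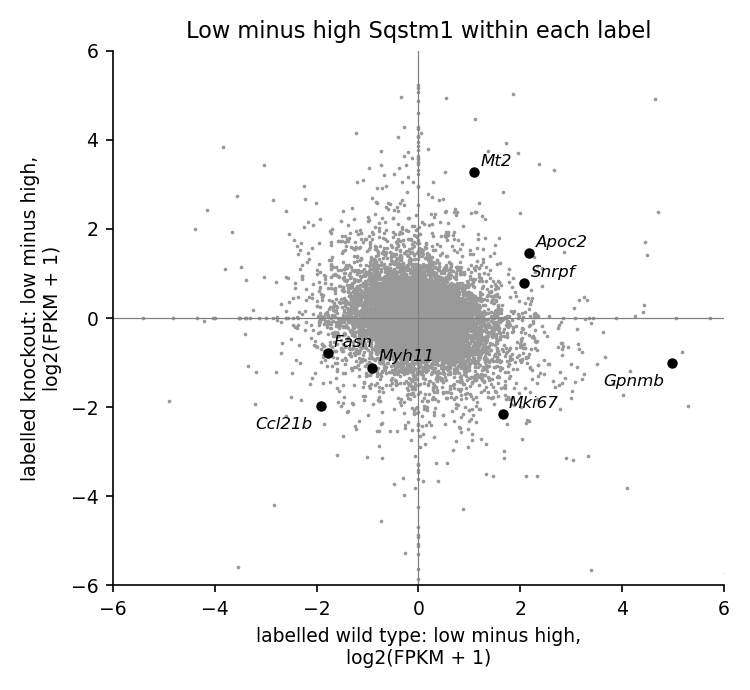
Low minus high Sqstm1 in log2(FPKM + 1), within the libraries labelled wild type (horizontal) and labelled knockout (vertical), 1 point a gene. The 38 genes beyond 6 on either axis are not drawn. Ccl21b and Myh11 lie lower in both labels and Apoc2, Snrpf and Mt2 higher in both, while Gpnmb and Mki67 lie at opposite signs.

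The gene with the smallest p was Mir719, a microRNA gene of 110 bases on chromosome 14 (60228806 to 60228915, minus strand), listed at 21.1, 72.0 and 148.9 FPKM in wild type 2, knockout 1 and knockout 3 and at 0 in the 3 high-Sqstm1 libraries. All low libraries were above all high ones, yet the adjusted p was 0.253 (limma). Its mature RNA is printed because this gene heads the ranking; the sequence is from RefSeq (GRCm38.p6, chr14:60228873-60228894, minus strand), 5′ to 3′, with the seed (bases 2 to 8) in capitals.
mmu-miR-719: aUCUCGGCuacagaaaaauguu
The libraries were made from polyadenylated RNA with reads of 75 bases, so a value at such an entry is not a measure of the mature microRNA. Of 190 tested genes under 300 bases, 118 were higher in the low-Sqstm1 libraries, with a median difference of 0.51, against 0.0041 for the 12531 longer genes with a known length. Snord70, a small nucleolar RNA of 87 bases, was at 1358, 3193 and 3803 FPKM in the low libraries and at 0, 0 and 273 in wild type 1, wild type 3 and knockout 2.

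In the following, values are in FPKM, first for wild type 2, knockout 1 and knockout 3 (low Sqstm1) and then for wild type 1, wild type 3 and knockout 2 (high Sqstm1). Each difference is low minus high on the log2(FPKM + 1) scale, with its standard error, and none of these genes passed the adjusted threshold. Most of the named genes were chosen by the size of their unadjusted p, so their non-overlap is part of the choice. Log differences of low genes are understated by the added 1.

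Contractile genes were the clearest group on the lower side. Myh11, the myosin heavy chain of smooth muscle, was at 15.0, 10.9 and 11.97 against 28.1, 30.1 and 25.9, a difference of -1.10 ± 0.24. Myl9, its regulatory light chain, was at 26.8, 35.2 and 22.7 against 75.6, 88.7 and 108 (-1.66 ± 0.28). In both genes every low library was under every high one, whatever its label. Mcam, an adhesion molecule of pericytes and endothelium, was at 107, 59.1 and 84.4 against 182, 167 and 142 (-0.995 ± 0.320). Actg2, the enteric smooth muscle actin, was at 0.286, 0.636 and 1.70 against 2.97, 3.998 and 3.46 (-1.32 ± 0.38).

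Of the 12 listed smooth muscle and pericyte markers, 11 were tested and all 11 were lower in the low-Sqstm1 libraries, with a median difference of -0.99, where the median over all genes tested was 0.0046. The groups did not overlap for 6 of the 11, against 7.81% of all genes tested, and 4 had an unadjusted p under 0.05, against 3.35%. The list score, the mean log2(FPKM + 1) relative to its mean over the 6 libraries, ran from -0.58 to -0.34 in the low libraries and from 0.30 to 0.54 in the high ones. With a pseudocount of 5 the list median was -0.57. It was -0.70 within the libraries labelled wild type and -0.84 within those labelled knockout, while the comparison by label gave -0.12. Endothelial markers had a median of -0.06 (6 of 14 higher), and preadipocyte and fibroblast markers -0.17 (8 of 18 higher). Whether the amount of vessel wall in each sample took part was not tested.

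A pair of lymphatic genes was also among those with the smallest p on the lower side. Ccl21b, a chemokine of lymphatic endothelium that guides dendritic cells and T cells, was at 4.81, 4.78 and 3.68 against 19.1, 22.9 and 19.4 (-1.99 ± 0.23, limma adjusted p = 0.253), the smallest p of the lower genes. Mmrn1, the secreted glycoprotein multimerin, was at 6.94, 7.03 and 7.66 against 18.6, 19.0 and 17.0 (-1.23 ± 0.21). The 3 values within each group lay close together in both genes. Gm10591 and Gm13304, near-identical copies of the Ccl21 genes, followed Ccl21b (-2.47 ± 0.33 and -2.16 ± 0.48), but Ccl21a did not: it was at 6.97, 5.42 and 0.000294 against 0.135, 31.9 and 30.8. Reads cannot be placed with certainty among these copies, so their split is uncertain. Other lymphatic genes were looked up after these values were seen. Prox1, the master regulator of lymphatic identity, was at 0.284, 0.540 and 0.911 against 1.21, 0.860 and 2.82, and its groups overlapped. Flt4, the receptor for VEGF-C, was at 1.44, 2.26 and 2.51 against 3.78, 3.63 and 3.46, without overlap. Of 7 lymphatic genes other than Ccl21b and Mmrn1, 6 were lower and 1 higher, with a median of -0.41. Ccl21a, whose reads cannot be placed apart from those of Ccl21b, was among the 7. The groups overlapped in 5 and did not in 2, where 7.81% of all genes tested had no overlap. An unadjusted limma p under 0.05 was reached by 0 of the 7. Pgf, placental growth factor, was at 0.300, 1.16 and 0.594 against 4.48, 4.08 and 3.38 (-1.59 ± 0.33), and Stk40, a serine/threonine kinase-like protein, at 5.16, 5.14 and 5.49 against 17.3, 18.0 and 11.7 (-1.39 ± 0.25). Cdsn, an adhesion protein of cornified skin, and Ifrd2 completed the lower genes named by the rule (-2.07 ± 0.47 and -1.05 ± 0.26).

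On the higher side, Apoc2, the cofactor of lipoprotein lipase, was at 23.4, 36.7 and 13.3 against 5.13, 3.73 and 7.48 (1.91 ± 0.40). Snrpf and Snrpe, both core proteins of the splicing ribonucleoproteins, were at 13.9, 7.42 and 6.77 against 2.72, 2.33 and 3.70 and at 19.2, 15.9 and 10.2 against 6.96, 5.52 and 3.98 (1.35 ± 0.33 and 1.29 ± 0.31). Wild type 2 had the highest value of both. Mt2, a metal-binding metallothionein, was at 42.3, 119 and 263 against 21.8, 17.1 and 17.4 (2.502 ± 0.604), and its neighbour Mt1 at 212, 251 and 1117 against 170, 127 and 101. Knockout 3 carried the highest level of both metallothioneins. Dynlt1b, a dynein light chain, stood at 21.6, 30.5 and 23.4 against 6.78, 11.6 and 11.7 (1.27 ± 0.29). Il18bp, the decoy that binds interleukin-18, and Darc, the chemokine-binding receptor of venules and red cells, were also higher in all low libraries (1.14 ± 0.28 and 1.30 ± 0.32). So was 1700071M16Rik (1.87 ± 0.40), annotated as antisense; whether strand was used in counting is not stated, so its reads cannot be told from those of its partner. Among cytosolic ribosomal proteins, a set looked up after Rpl23 was seen at 145, 142 and 85.5 against 44.0, 39.5 and 62.3, 69 of 77 were higher with a median of 0.42, and the comparison by label gave a median of 0.40.

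**Figure D4:**
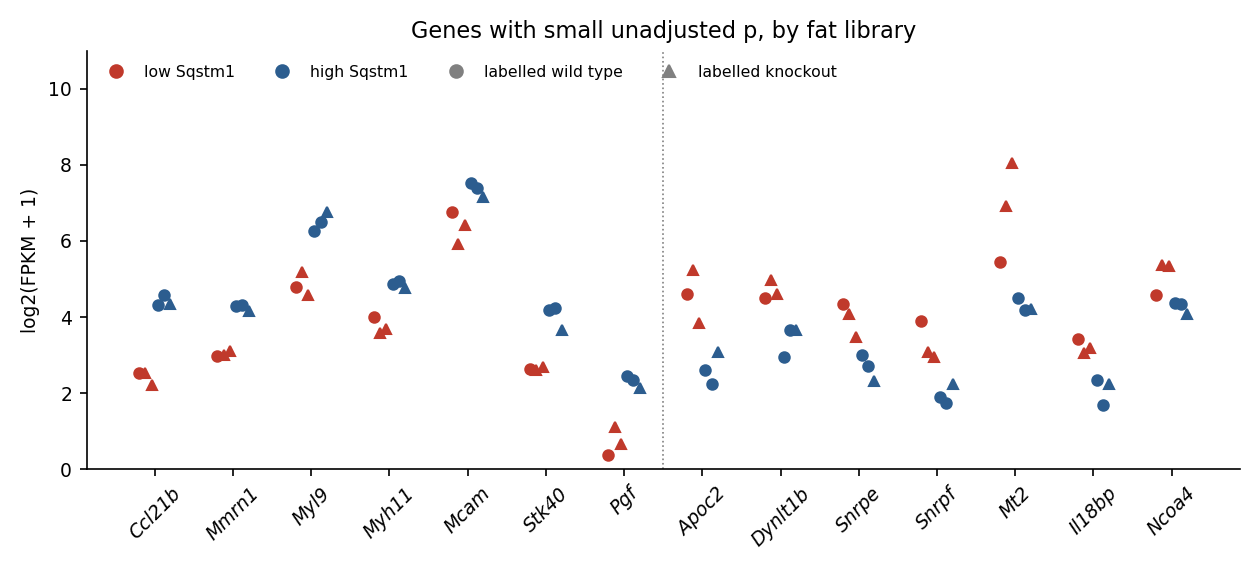
Level in log2(FPKM + 1) of genes with small unadjusted p, 1 point a library. In each gene the points are, from left to right, wild type 2, knockout 1, knockout 3 (low Sqstm1), wild type 1, wild type 3 and knockout 2 (high Sqstm1). The 7 genes left of the dotted line are lower and the 7 on the right higher in the low-Sqstm1 libraries, with no overlap, as the choice of genes made likely.

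Genes of the pathways around p62 lay near 0 on balance. Keap1 was at 24.2, 19.7 and 21.7 against 25.7, 19.3 and 24.7, a difference of -0.07 with a 95% interval from -0.64 to 0.49. Nfe2l2, the gene of NRF2, was at 74.1, 67.5 and 78.4 against 56.8, 69.9 and 72.8 (0.14, interval from -0.45 to 0.74). Nqo1, a quinone reductase and a standard NRF2 target, was at 0.945, 2.49 and 3.75 against 1.63, 5.67 and 2.76 (-0.34, interval from -1.46 to 0.77). The groups overlapped in all 3 genes. Of 19 NRF2 targets tested, 9 were higher and 10 lower, with a median of -0.01. Hmox1, haem oxygenase, was at 40.03, 248 and 146 against 37.7, 20.3 and 105, high in all 3 libraries labelled knockout (1.37 ± 0.79 by Sqstm1 and 2.28 ± 0.40 by label). Tkt, the transketolase of the pentose phosphate pathway, was at 188, 97.6 and 78.4 against 371, 356 and 177 (-1.33 ± 0.46), and by label it differed by -1.39 ± 0.41. Of 20 signalling partners of p62 tested, 7 were higher and 13 lower, the median was -0.07, and 0 had an unadjusted p under 0.05.

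Among the 15 other autophagy receptors and LC3 family members, 13 were higher in the low-Sqstm1 libraries, with a median of 0.24, where 50.6% of all genes were higher. An unadjusted p under 0.05 was reached by 3.35% of all genes and by 1 of the 15, a count too small to set the list apart. That gene was Ncoa4, the receptor that delivers ferritin to the autophagosome, at 22.8, 39.97 and 39.8 against 19.8, 19.3 and 15.9 (0.83 ± 0.30). Nbr1, the receptor most like p62 in build, was at 76.9, 74.4 and 116 against 65.6, 77.1 and 58.9 (0.38, interval from -0.31 to 1.07), and its groups overlapped. Gabarapl1, an LC3 relative, was at 160, 275 and 348 against 133, 180 and 149 (0.70 ± 0.38), and Map1lc3a, LC3A, at 123, 40.5 and 59.0 against 87.5, 113 and 93.1 (-0.54 ± 0.43). Of 27 genes of the core autophagy machinery 20 were higher, with a median of 0.19. Uvrag and Atg16l1, which act in forming the autophagosome, differed by 0.51 ± 0.22 and 0.45 ± 0.23 without overlap. The 29 mTORC1 components and sensors split into 14 higher and 15 lower, with a median of -0.03. Within that list Lamtor3, a subunit of its lysosomal anchor, was at 42.1, 26.0 and 33.6 against 17.8, 15.6 and 21.9 (0.83 ± 0.28), and Sesn3, the leucine and stress sensor sestrin 3, at 10.3, 4.98 and 12.5 against 24.3, 18.0 and 16.7 (-1.08 ± 0.35). Of 19 genes of the ATF4 response and serine synthesis list, 8 were higher and 11 lower, with a median of -0.21. Phgdh and Psat1, enzymes of serine synthesis, differed by -1.10 ± 0.50 and -0.78 ± 0.56. Ddit4, the stress-induced mTORC1 inhibitor REDD1, was at 17.7, 30.4 and 140 against 5.07, 11.2 and 11.8 (2.15 ± 0.72).

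Lysosome and macrophage genes were mostly higher in the low-Sqstm1 libraries, but knockout 2 and wild type 2 did not separate. Of 27 lysosome genes 26 were higher (median 0.68), of 16 macrophage markers tested 15 (median 1.17), and of 12 markers of lipid-associated macrophages 10 (median 1.62). By label these medians were 0.75, 1.34 and 2.01. The lysosome median was 0.85 within the libraries labelled wild type and 0.03 within those labelled knockout. For macrophage markers it was 1.02 and 0.33. Gpnmb, a glycoprotein of lipid-laden macrophages, was at 387, 864 and 237 against 8.63, 14.5 and 919, so that knockout 2 was the highest of all libraries. Atp6v0d2, a subunit of the lysosomal proton pump in macrophages and osteoclasts, was at 135, 172 and 82.2 against 2.07, 3.56 and 204. Both genes were low only in wild types 1 and 3. For the lipid-associated list the median was 2.65 within the libraries labelled wild type and -0.80 within those labelled knockout. Ms4a7, a macrophage membrane protein, was at 14.5, 20.7 and 10.8 against 5.06, 0.661 and 6.82 (1.89 ± 0.58), and Cd163, the haemoglobin scavenger receptor, at 25.0, 156 and 151 against 33.8, 29.3 and 17.5. Adgre1 had no entry under that symbol. Spp1, osteopontin, was at 18.3, 1052 and 18.3 against 5.12, 6.39 and 99.9, with knockout 1 far above the rest.

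Lipid synthesis and adipocyte genes were lower on balance, and followed the label more closely. Of 17 genes of fatty acid synthesis 16 were lower, with a median of -1.19. An unadjusted p under 0.05 was reached by 1 of the 17, where 3.35% of all genes had one. By label the median was -1.98 and 14 of the 17 had one, where 15% of all genes did. Fasn, fatty acid synthase, was at 168, 8.07 and 53.3 against 662, 509 and 37.4, a difference of -2.43 ± 1.34 by Sqstm1 and of -3.85 ± 0.76 by label. Knockout 2 was thus among the low libraries for Fasn despite its high Sqstm1, and wild type 2 lay between the labels. Mid1ip1, an activator of acetyl-CoA carboxylase, was at 42.0, 32.7 and 23.1 against 55.5, 85.2 and 45.1 (-0.90 ± 0.35). In the cholesterol synthesis list 20 of 22 genes were lower, with a median of -0.48.

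Of 20 mature adipocyte markers 15 were lower, with a median of -0.39 against -0.85 by label. That median was -0.41 within the libraries labelled wild type but 0.38 within those labelled knockout. Adipoq was at 2078, 1919 and 1823 against 2896, 2982 and 1632, and Fabp4, whose promoter drives the Cre, at 7569, 7602 and 8288 against 6351, 4834 and 4755 (0.57 ± 0.57). Cebpa, a transcription factor of adipocyte differentiation, was at 132, 120 and 123 against 246, 199 and 167 (-0.69 ± 0.29). Lep, the satiety hormone leptin, was highest in wild type 2, at 2285, 171 and 368 against 476, 705 and 805. Medians were between -0.33 and 0.01 for fatty acid oxidation, oxidative phosphorylation, the TCA cycle, glycolysis, lipolysis, triglyceride assembly, insulin signalling and branched-chain amino acid catabolism. In glycolysis Pfkm, muscle phosphofructokinase, was at 4.27, 4.30 and 4.19 against 6.67, 8.72 and 6.999 (-0.68 ± 0.23), and Aldoc, aldolase C, at 0.850, 0.826 and 0.281 against 1.22, 10.8 and 4.24. Of 13 thermogenic genes listed, 8 were tested and all 8 were lower, with a median of -0.69 against -0.96 by label. That median was -0.93 within the libraries labelled wild type but 0.19 within those labelled knockout. With the label as a second term it was -0.17. Ucp1 averaged 0.61 FPKM and was not tested. Cox7a1, a cytochrome oxidase subunit of muscle and brown fat, was at 0.968, 1.08 and 0 against 4.46, 2.16 and 1.56.

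Markers of other cells differed widely between libraries. Of 7 red cell genes tested all 7 were higher, with a median of 0.94, but the list score was -1.15 in wild type 2 and 1.33 to 1.98 in knockouts 3 and 1. Hba-a2, an alpha globin whose reads could be split with its near-identical copy Hba-a1, was at 532, 1156 and 1589.8 against 0.317, 344 and 44.2. Neuroendocrine markers scored 1.82 in knockout 2 and from -0.68 to 0.36 in the other libraries, and the cell cycle list 1.27 in knockout 2, 1.19 in knockout 1 and from -1.15 to -0.05 elsewhere. Mki67, the proliferation antigen, was at 18.0, 50.6 and 5.94 against 9.26, 2.52 and 83.1. Mesothelial markers scored -1.33 in wild type 2 and from -0.40 to 0.79 in the rest; Krt8, a keratin of simple epithelia, was at 0.398, 7.40 and 4.603 against 5.50, 25.0 and 25.0 (-2.02 ± 0.78). Of 6 prostate epithelium markers tested, all 6 were lower in the low-Sqstm1 libraries, with a median of -1.11 (-1.35 within the libraries labelled wild type and -0.62 within those labelled knockout). Their score ran from -0.80 to -0.04 in the low libraries and from -0.13 to 1.12 in the high ones, and the 12 markers in the table summed to between 9.33 and 33.6 FPKM and to between 21.3 and 108 FPKM. The part of such cells in the results above was not tested.

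**Figure D5:**
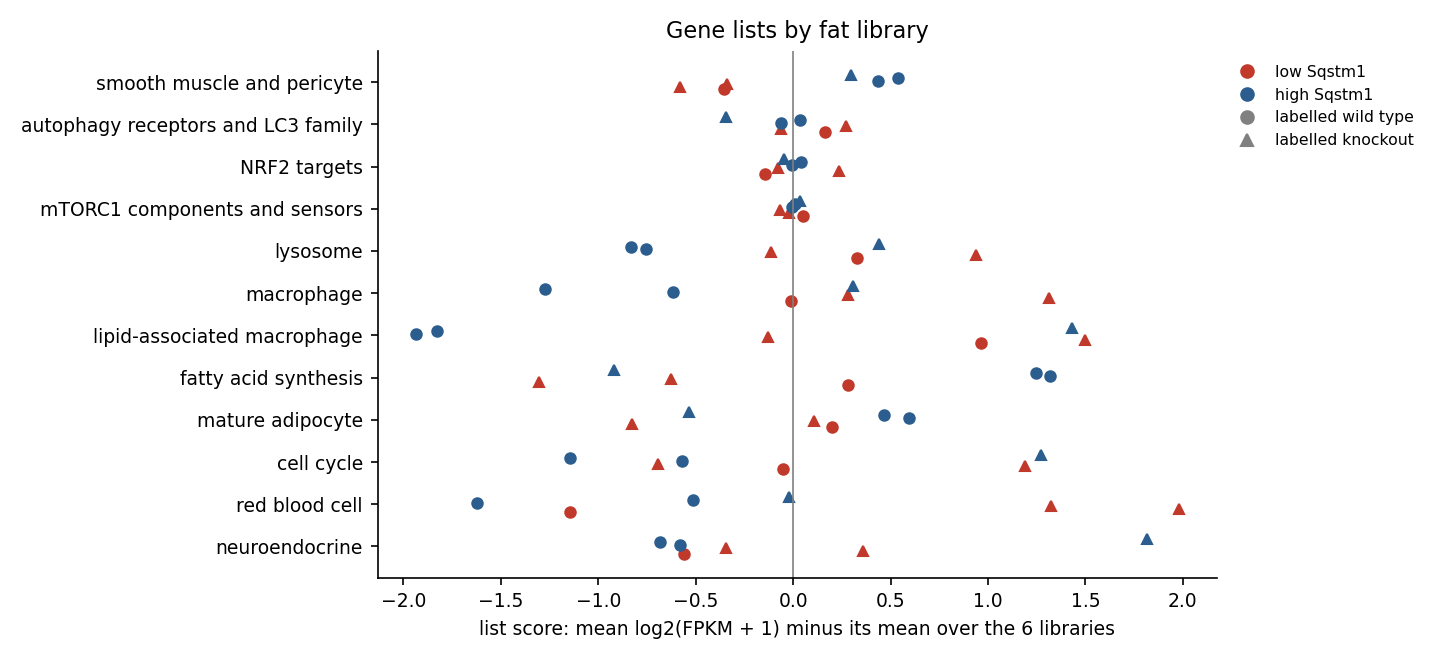
List score of 12 gene lists in each fat library: the mean over a list's tested genes of log2(FPKM + 1), minus its mean over the 6 libraries. For smooth muscle and pericyte markers the low-Sqstm1 libraries lie between -0.58 and -0.34 and the high ones between 0.30 and 0.54, while for most other lists the Sqstm1 groups overlap.

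Genes next to Sqstm1 on chromosome 11 did not stand apart. Of its 40 nearest tested neighbours, looked up after the groups were compared, 22 were higher and 18 lower, with a median of 0.02. Of 1054 tested genes on the whole chromosome 516 were higher, with a median of -0.01.

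In the tumour libraries of the same labels and numbers, total counts were 1.78e+07 to 3.25e+07. Grouped as the fat libraries were, 0 of 14910 genes passed at an adjusted p under 0.05 (0%; edgeR quasi-likelihood, smallest adjusted p = 0.964), and 0 with DESeq2. An unadjusted p under 0.05 was reached by 353 genes (2.37%) with edgeR and by 584 with DESeq2, where 5% would be 746. The edgeR count was 791 without wild type 3, 83 without knockout 1, 1402 without knockout 2 and 159 without knockout 3. Of the 20 genes named first for fat, 11 were tested in the tumours, 2 differed in the same direction and 0 had an unadjusted p under 0.05. Myh11, lower in the low-Sqstm1 fat libraries, was at 2547, 2565 and 2275 CPM in tumours wild type 2, knockout 1 and knockout 3, against 1356, 468 and 1829 in wild type 1, wild type 3 and knockout 2, a log2 difference of 1.01 in the other direction (edgeR adjusted p = 0.964).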

How the data were processed

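RNA of epididymal fat (6 libraries) and prostate tumour (7) was sequenced as single-end reads of 75 bases after poly(A) selection with a directional kit, per the labels' protocols. STAR, DESeq2 and the mouse build mm10 are named, without versions or roles, per the submitters' processing notes; neither the counting tool nor the gene annotation is given in the sources used here. In the deposited fat table no unit is given; its numbers are fractional, have unequal library totals and are very high for the shortest genes, and were taken to be the authors' FPKM with a further scaling between libraries. The authors' tumour values are whole-number counts with unequal totals.

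The grouping by measured Sqstm1, the members and the 39 gene lists were chosen with earlier results of these data known. Low minus high was tested with limma 3.58.1 (trend, R 4.3.3) on log2(FPKM + 1) over genes averaging 1 FPKM or more, Sqstm1 left out, two-sided with Benjamini-Hochberg adjustment over all 13616 genes. For tumour counts the test was edgeR 4.0.16 (quasi-likelihood, TMM, filterByExpr), leaving out wild type 4, which has no fat library of its number, and with DESeq2 1.42.0 as an alternative. The fit was tested on simulated data. Genes were named by rule: the 10 smallest unadjusted p in each direction, up to 3 per list and direction, and 12 set genes. Positions come from GENCODE M21, which held 12751 of the tested symbols.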

Additional observations from a re-analysis of the deposited data

Results flagged for a closer look

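An interaction of Sqstm1 group and label passed limma's adjusted threshold for 4 small RNA genes, with 2 residual degrees of freedom. Wild type 2 and knockout 2 are each the only library of their combination, so a value or a 0 in 1 library can make the call, and no difference in effect between labels is shown by it. Values are in FPKM for wild type 2, knockout 1 and knockout 3, then for wild type 1, wild type 3 and knockout 2. Snord42a was at 7273, 0 and 0 against 0, 0 and 0 (adjusted p = 0.0243), so that wild type 2 alone had a value. Mir330 was at 64.7, 0 and 0 against 0, 0 and 52.1 (adjusted p = 0.0243), present only in the libraries numbered 2. Scarna17 was at 0, 1228 and 975 against 424, 412 and 143 (adjusted p = 0.0243), and DQ267102 at 0, 480 and 286 against 1243, 965 and 84.5 (adjusted p = 0.0485); wild type 2 was listed at 0 for both.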

How the results depend on the processing

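The count of genes at an adjusted p under 0.05 in low minus high was 0 in the reported fit and under a pseudocount of 5, both filters, both other scalings, the label as covariate and limma without a trend; it was 1 with a pseudocount of 0.1 (Mir719), 0 to 4 when 1 library was left out and 5 without both libraries numbered 2. These calls were mostly small RNAs: without both libraries numbered 2 they were DQ267100, Mir719, Snord61, Snord70 and Pnpla3. Genes at an unadjusted p under 0.05 numbered 199 to 1139 with 1 library left out, 226 among genes with a mean of at least 10, fewer of which were tested, and 1715 without both libraries numbered 2, when the low minus high and label comparisons are the same. Non-overlapping genes, which grow with fewer libraries, were 484 at a mean of at least 10, 1682 to 3615 with 1 library left out and 6215 without both. By label, 2 to 5 genes passed the adjusted threshold with 1 library left out and 5 without both numbered 2; at an unadjusted p under 0.05 there were 1251 at a mean of at least 10, and 1267 to 2878 with 1 library left out. In tumours 0 genes passed under every alternative, and unadjusted counts were 695 without a filter, 584 with DESeq2 and 83 to 1402 with 1 library left out.

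For fat libraries numbered 1, 2 and 3, deviations from the Sqstm1 group means had correlations of -0.24, -0.14 and 0.17. Deviations from the label means had correlations of -0.05, 0.15 and 0.16. The 0.15 is the Pearson r of -0.15 between the within-label differences, given above, with its sign turned. Each number holds both labels and both Sqstm1 groups, so a difference by label or by group enters these correlations. They therefore cannot decide whether equal numbers pair the libraries, and the reported fit did not pair them. With the replicate block 0 genes passed and 374 had an unadjusted p under 0.05 in low minus high fat, 1 and 2220 by label, and 0 and 136 in tumours.

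Of 55 genes checked, most of them named in the text, 5 turned sign under some alternative, none of them past the threshold. Named genes outside this check include Ccl21a, Prox1, Flt4, Rpl23, Mt1, Phgdh, Psat1 and 1700071M16Rik. Keap1 ran from -0.20 to 0.0013 and Nqo1 from -0.65 to 0.018 (0.011 without wild type 2) when 1 library was left out. Lep ran from -1.36 to 0.50 and Mki67 from -0.63 to 1.66 (-0.34 without knockout 1) in the same way, and with the label as covariate they were 0.15 and -0.25. Fabp4 was -0.038 with quantile normalization. The cause was not tested. Of 623 list medians under alternatives, 585 moved by less than the spread between libraries; the smooth muscle median was -0.57 with a pseudocount of 5 and below 0 under the others listed here.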
